A study of Mus musculus with 8 samples.

Results

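The comparison described the state of 32Dcl3 cells after 24 h in granulocyte colony-stimulating factor (G-CSF), set against the same cells growing in interleukin-3 (IL-3). It used 4 of the 8 arrays of the series, chosen by label alone: mock cells in IL-3, ASXL1-MT cells in IL-3, mock cells at 24 h of G-CSF and ASXL1-MT cells at 24 h of G-CSF. The 24 h value minus the IL-3 value was taken within each vector, and the mean of these differences is the change reported below. 32Dcl3 is an established mouse line of immature myeloid cells. Mock cells carried the retroviral vector pMYs-IG, and ASXL1-MT cells carried pMYs-FLAG-ASXL1-MT-IG, which adds a FLAG-tagged mutant of ASXL1, a chromatin regulator altered in myeloid disease. The labels give neither the species of the ASXL1 cDNA, nor whether the cells were clones or pools, nor whether IL-3 was withdrawn or the time points were separate cultures. With 1 array per vector and time, p-values measure only the spread between these arrays, which is how far the vectors differed in their changes. This spread may be technical or an effect of the ASXL1 mutant, which cannot be told apart, and the number of arrays limits the precision. A gene passes more easily where its vectors agree, so agreement between the vectors in a called gene adds no test. The other 4 arrays, at 2 h and 6 h of G-CSF, entered the estimate of the spread, the gene medians and the choice of genes to test, but not the differences themselves.

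IL-3 keeps early myeloid cells alive and dividing, mainly through JAK2, STAT5, RAS and phosphoinositide 3-kinase (PI3K). G-CSF acts through its own receptor, with STAT3 as a principal mediator, and drives commitment to the neutrophil lineage. A maturing neutrophil stops dividing, lays down granules, remodels its nucleus and acquires the equipment of a phagocyte: receptors that find and bind microbes, an oxidase that makes superoxide, lysosomes and a motile actin cortex. In the same period it reduces the machinery of growth, including mitochondria, ribosome supply and nucleotide synthesis. Granule and ribosomal protein genes are left aside here, and the other functions are described in turn.

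Values are log2 expression relative to each gene's median over the 8 arrays, so a change of 1 is a doubling, if the log base is 2 as assumed. Of 18193 genes, 12911 reached a coarsely estimated level for testing, and 3497 (27.1%) passed a false discovery rate of 0.05 in limma. Higher at 24 h were 1935 genes (15.0%) and lower were 1562 (12.1%), of which 804 (6.23%) and 402 (3.11%) differed at least 2-fold. These shares are the background for each count below. The median change over all genes tested was 0.09, and 9780 genes (75.7%) moved in the same direction in both vectors. The 42 function lists held 1041 tested genes, of which 236 were higher and 268 lower, and no tested gene was in more than 1 list. No gene passed when any of the 4 arrays of the comparison was left out or when these 4 arrays were fitted alone. In limma the lowest adjusted p was then 0.0539 to 0.0613 and 0.118, while 3926 to 4137 genes and 4138 genes had a p under 0.05 before adjustment. Of 292 calls of genes selected for naming, 101 ended under at least 1 of 11 other settings, and those named are listed with their group. These 11 exclude the fits just described, in which no gene passed. Each highest adjusted p given with a group is the highest over these 11 in limma. Among them, leaving out either 2 h array is the same fit for this change, as is leaving out either 6 h array. Each such pair is thus not 2 separate checks. Of 50 named genes that did not pass, 17 passed under at least 1 of these settings. They were Acaca, Actb, Arpc2, Atp5b, Coro1a, Cs, Eef2, Fth1, Hdac1, Myb, Odc1, Plin2, Psmb5, Sec61a1, Stxbp2, Tfam and Txnip. Tfam passed under 5 settings, the most of these. In 26 of the 292 calls both arrays of the dimmer group lay under the level for testing, so the size of the change is uncertain. Of these the higher ones were Adam19, Bcl3, Calcoco1, Ccr1, Ccr2, Cxcr2, Foxo4, Ikbke, Lyst, Mpeg1, Nlrc5, P2ry13, Pram1, Rab37, Siglece, Spint1, Tlr6, Wfdc17 and Xrcc5, and the lower ones Ccl3, Cd74, Hdac9, Il6, Pcx, Rasgef1b and Syne2. Without the 24 h arrays, 491 of all genes tested would not have reached the level for testing, so the filter favoured genes higher at 24 h. They include 20 members of the function lists, of which 9 passed, and among the genes named Ccr2, Fcgr4, Lyst, Nlrc5, Siglece, Stfa2l1, Wfdc17, Xrcc5 and Tnfaip3. Separation of the groups is given below mostly for genes already called, and its share over all genes tested was not counted, so it adds no test. In this bulk RNA, fewer cells of a type and less RNA per cell cannot be told apart.

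**Figure D1:**
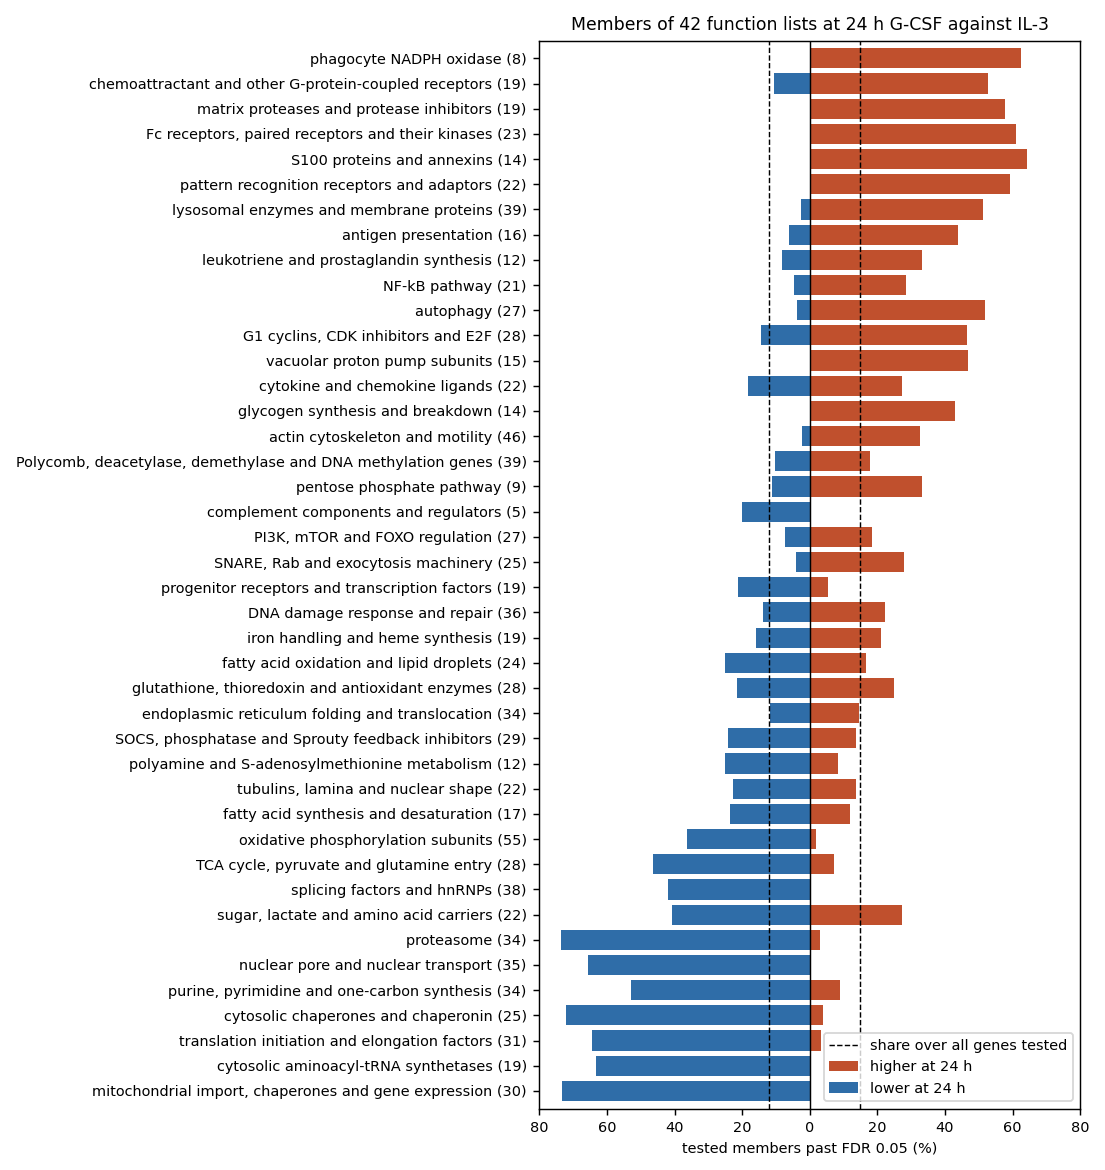
Bars give the percentage of tested members of each of the 42 function lists that passed a false discovery rate of 0.05, higher to the right and lower to the left, with the number of tested members in parentheses and lists ordered by median change. Dashed lines mark the shares over all genes tested, 15.0% higher and 12.1% lower. Mitochondrial import, proteasome and chaperone genes reach 72.0% to 73.5% lower, and S100 and annexin genes 64.3% higher.

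The labelled cell type was checked against 8 marker lists. All 7 granulocyte-line markers on the array had an estimated level of at least 8 and were higher at 24 h, by 0.49 (Mpo) to 2.26 (Elane), and their summed values went from -1.5 and -2.52 in IL-3 to 7.17 and 7.03 at 24 h in mock and ASXL1-MT cells. The 5 eosinophil markers also moved together, from -4.38 and -5.65 to 11.41 and 13.36, with Prg2 (6.51) and Prg3 (5.91), which encode granule proteins, moving most, and 4 of the 5 passed. The 9 macrophage and dendritic cell markers went from -2.96 and -4.03 to 6.49 and 6.50, and 4 of 7 tested ones were higher. Those were Csf1r (1.65, estimated level 12.2), Cd68 (1.53), Mrc1 (0.65) and Mpeg1 (5.46). Mpeg1 alone differed by 4.38 in mock and 6.54 in ASXL1-MT cells. Itgax (0.52) and Flt3 (0.26) did not pass. Adgre1, a bright macrophage marker (estimated level 11.8), did not pass (-0.10, adjusted p = 0.465), and C1qa and Marco had estimated levels of 1.2 and 1.7 and were not tested. Of 7 tested mast cell and basophil markers 2 were higher, Cpa3 (1.75) and Mcpt8 (0.77), and 2 lower, Cma1 (-2.18) and Gata2 (-1.31). Of 5 megakaryocyte markers Vwf (1.93) and Itga2b (0.83) were higher, and of 3 erythroid markers Epor (0.77) was higher and Klf1 (-1.12) lower. None of the 4 lymphocyte and 2 fibroblast markers tested passed. In mock and ASXL1-MT cells the summed values went from -2.74 and 1.27 to 1.11 and 2.79 for mast cells and basophils, from -1.39 and -1.79 to 3.45 and 2.33 for megakaryocytes and from -2.22 and 0.17 to 0.47 and -3.88 for erythroid cells. They went from -4.74 and -1.08 to 5.24 and 0.59 for lymphocytes and from -3.74 and -1.67 to -2.40 and 0.42 for fibroblasts. Markers too dim to test are part of these sums, 3 of 7 for lymphocytes and 4 of 6 for fibroblasts. The lymphocyte marker Cd79a, at an estimated level of 2.9, went from -0.59 to 4.77 in mock and from 0.22 to -0.40 in ASXL1-MT cells. The part of the marker lists in the results below was not tested. The Asxl1 probe set read -0.01 in mock and -0.29 in ASXL1-MT cells in IL-3, and 0.86 and 0.59 at 24 h, so it was not higher in the cells labelled ASXL1-MT and does not check that label.

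**Figure D2:**
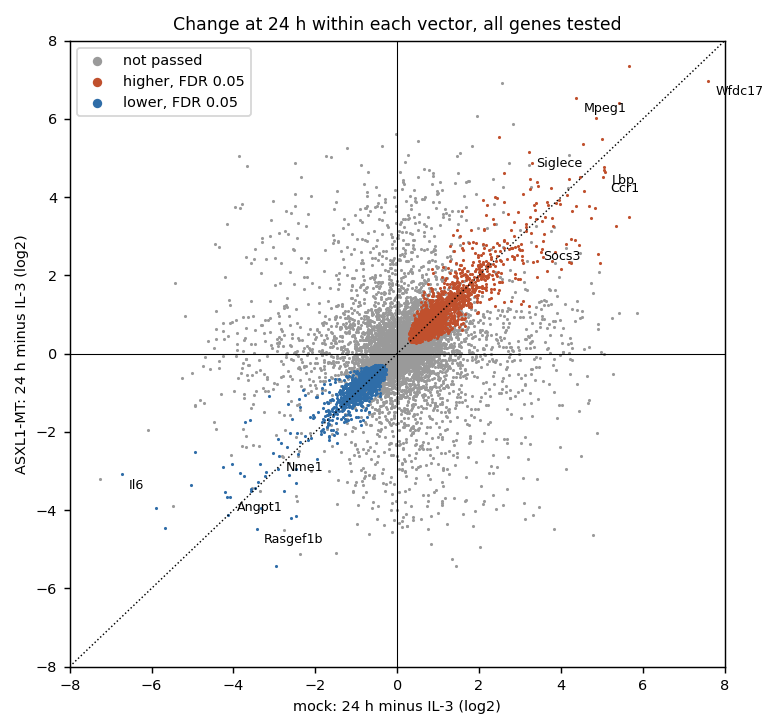
Each point is 1 of the 12911 tested genes, with its 24 h minus IL-3 difference (log2) in mock cells on the horizontal axis and in ASXL1-MT cells on the vertical axis. Colours mark genes higher or lower at a false discovery rate of 0.05, the dotted line marks equal change, and 75.7% of genes lie in the quadrants where both vectors moved in the same direction.

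Many receptors that sense microbes and inflammatory signals were higher at 24 h. Of 19 tested chemoattractant and related receptors, 10 were higher and 2 lower, with a median change of 1.14. Ccr1, a receptor for inflammatory CC chemokines, read -0.15 in mock and -0.48 in ASXL1-MT cells in IL-3, and 4.87 and 4.03 at 24 h. Both 24 h arrays lay far above both IL-3 arrays, and the change was 4.77 ± 0.16 (adjusted p = 0.0048). Cxcr2, the receptor through which neutrophils follow CXC chemokines, read -0.20 in mock and -1.45 in ASXL1-MT cells in IL-3, and 1.97 and 2.10 at 24 h. The groups did not overlap, and the change was 2.86 ± 0.44 (adjusted p = 0.0185). Also higher were P2ry13 (3.53 ± 0.41), a purinergic receptor, Ffar2 (2.71 ± 0.13), a receptor for short-chain fatty acids, Ltb4r1 (2.20 ± 0.14), which binds leukotriene B4, C5ar1 (1.57 ± 0.18), which binds the complement fragment C5a, and Ccr2 (4.58 ± 0.96), the monocyte chemokine receptor. The formyl peptide receptor gene Fpr2 was too dim to test, at 0.56 in mock and -1.19 in ASXL1-MT cells in IL-3, and 0.33 and 0.13 at 24 h. Ccr2 did not pass under at least 1 other setting, with an adjusted p of up to 0.0693.

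Of pattern recognition receptors and adaptors, 13 of 22 tested were higher and 0 lower (median 0.63). Lbp, which encodes lipopolysaccharide-binding protein, read -0.88 in mock and -0.99 in ASXL1-MT cells in IL-3, and 4.19 and 3.71 at 24 h, a change of 4.88 ± 0.14 (adjusted p = 0.0048). Cd14, the co-receptor that receives lipopolysaccharide from it, read -0.29 in mock and -1.77 in ASXL1-MT cells in IL-3, and 2.96 and 2.44 at 24 h, a change of 3.73 ± 0.27 (adjusted p = 0.00635). For both genes the 24 h arrays lay above the IL-3 arrays by more than the difference between vectors. Toll-like receptors followed with Tlr6 (2.31 ± 0.24), Tlr2 (1.45 ± 0.12) and Tlr4 (0.63 ± 0.09), of which Tlr4 signals for lipopolysaccharide. Unc93b1 (1.47 ± 0.10), which carries nucleic acid-sensing Toll-like receptors to endosomes, and Casp4 (2.36 ± 0.08), the caspase that senses cytosolic lipopolysaccharide, were higher too. The mean of all Tlr4 probe sets was -0.13, so that its probe sets disagreed. Tlr4 did not pass under at least 1 other setting, with an adjusted p of up to 0.74.

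Fc receptors, paired receptors and their kinases, which couple surface binding to tyrosine kinase signalling through immunoreceptor motifs, had 14 of 23 tested members higher and 0 lower (median 0.82). Tyrobp, the adaptor DAP12, read -0.05 in mock and -0.27 in ASXL1-MT cells in IL-3, and 2.12 and 1.97 at 24 h, a change of 2.21 ± 0.14 (adjusted p = 0.00596). The other adaptor, Fcer1g (0.95 ± 0.08), and the immunoglobulin G receptors Fcgr3 (0.81 ± 0.08) and Fcgr2b (0.63 ± 0.10), of which the second is inhibitory, were higher as well. Fcgr4 (2.40 ± 0.18), another such receptor, was tested only through its 24 h arrays. Pirb, an inhibitory receptor of a family of near-identical genes, read -0.64 in mock and -1.31 in ASXL1-MT cells in IL-3, and 2.52 and 2.02 at 24 h, a change of 3.24 ± 0.17 (adjusted p = 0.00554). For Tyrobp and Pirb no IL-3 array reached a 24 h array. Clec5a (3.08 ± 0.39), a lectin that signals through DAP12, Pilra (2.83 ± 0.30), an inhibitory paired receptor, and Siglece (4.19 ± 1.02), an inhibitory sialic acid receptor, were higher. In IL-3, Siglece read 1.66 in mock and -1.21 in ASXL1-MT cells, and the mock value in IL-3 lay below both 24 h values. The mean over all Fcgr2b probe sets was 0.99. Fcgr2b, Clec5a and Siglece did not pass under at least 1 other setting, with adjusted p-values of up to 0.103.

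The promoter of Clec5a is shown because the purine-rich letters GAGGAAG, the core recognised by the myeloid factor PU.1, were frequent in this list. Searched on both strands from 250 bases before to 50 after the start in RefSeq (GRCm38.p6), they occurred in 12 of the 19 tested members with a promoter (63.2%) against 4152 of 27025 genes (15.4%). The same letters occurred in 7 of 14 fatty acid synthesis genes (50.0%), a list with more lower than higher members. Other shares were 4 of 11 for leukotriene and prostaglandin synthesis (36.4%), 6 of 17 for sugar and amino acid carriers (35.3%) and 0 of 3 for the NADPH oxidase. The share over all genes was not limited to genes tested here. The motifs were picked with the results known, and a match is a description of letters. In the Clec5a promoter (chr6:40585756-40586055, minus strand) capitals mark 2 matches, in reverse complement, whose leftmost bases lie 82 and 56 bases before the start.
Clec5a: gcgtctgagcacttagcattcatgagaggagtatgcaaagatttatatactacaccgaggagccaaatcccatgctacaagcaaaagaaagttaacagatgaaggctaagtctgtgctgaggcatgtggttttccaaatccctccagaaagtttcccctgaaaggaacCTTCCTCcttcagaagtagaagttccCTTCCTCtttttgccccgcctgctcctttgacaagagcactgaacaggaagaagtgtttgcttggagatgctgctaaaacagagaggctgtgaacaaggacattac

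Intracellular signalling genes changed in both directions. In the NF-kB pathway 6 of 21 tested members were higher and 1 lower (median 0.47). Bcl3, an atypical IkB protein that modulates NF-kB target genes in the nucleus, read -1.36 in mock and -1.46 in ASXL1-MT cells in IL-3, and 2.62 and 2.37 at 24 h, a change of 3.90 ± 0.11 (adjusted p = 0.0048), with no overlap between the groups. Ikbke (2.17 ± 0.27), an IkB kinase relative, Nfkbia (1.69 ± 0.18), the inhibitor IkB-alpha, Birc3 (0.86 ± 0.14), a ubiquitin ligase, and Rela (0.47 ± 0.08), the p65 subunit, were higher, and Traf6 (-0.73 ± 0.14), an adaptor ligase for Toll-like receptors, was lower. Tnfaip3 (0.38 ± 0.21), the deubiquitinase A20, did not pass. Higher NF-kB members numbered 3 without the filter on dim genes. Birc3, Rela and Traf6 did not pass under at least 1 other setting, with adjusted p-values of up to 0.567.

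Cytokine feedback inhibitors changed in both directions: 4 of 29 tested were higher and 7 lower (median -0.14). Socs3, which binds the G-CSF receptor and limits STAT3 signalling, read -0.81 in mock and -0.36 in ASXL1-MT cells in IL-3, and 2.57 and 2.40 at 24 h, a change of 3.07 ± 0.30 (adjusted p = 0.00885). Cish, a feedback inhibitor induced by STAT5, read 2.00 in mock and 2.08 in ASXL1-MT cells in IL-3, and 0.45 and -0.00 at 24 h, a change of -1.82 ± 0.16 (adjusted p = 0.00763). The 24 h arrays were above the IL-3 arrays for Socs3 and below them for Cish, in both vectors. Socs2 (-0.90 ± 0.16), another STAT5-induced inhibitor, and the ERK phosphatases Dusp4 (-1.21 ± 0.21) and Dusp6 (-0.94 ± 0.10) were lower, while Ptprc (1.36 ± 0.11), the phosphatase CD45, was higher. Socs3 was read by a probe set of a type that can match other transcripts. The Dusp6 change was -1.53 after quantile normalization, and the Socs2 change -0.52 over all probe sets. Higher feedback members numbered 7 with a variance trend and 8 with a stricter filter. Socs2, Dusp4 and Ptprc did not pass under at least 1 other setting, with adjusted p-values of up to 0.118.

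The promoters of Socs3 and Cish, the members of this list that moved most in each direction, both hold the STAT palindrome TTCNNNGAA, which 3 of 22 members (13.6%) and 2582 of all 27025 genes (9.55%) hold in the same window. Capitals mark 1 match in Socs3 (chr11:117969317-117969616, minus strand), 154 bases before the start, and 2 in Cish (chr9:107296409-107296708, plus strand), beginning at the start and 11 bases after it.
Socs3: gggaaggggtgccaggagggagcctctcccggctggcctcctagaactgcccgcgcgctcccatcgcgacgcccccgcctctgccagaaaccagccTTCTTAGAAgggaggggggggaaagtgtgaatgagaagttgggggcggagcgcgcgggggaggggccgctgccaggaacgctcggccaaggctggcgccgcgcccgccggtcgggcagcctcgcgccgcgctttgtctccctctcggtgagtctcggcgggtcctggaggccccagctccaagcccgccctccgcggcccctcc
Cish: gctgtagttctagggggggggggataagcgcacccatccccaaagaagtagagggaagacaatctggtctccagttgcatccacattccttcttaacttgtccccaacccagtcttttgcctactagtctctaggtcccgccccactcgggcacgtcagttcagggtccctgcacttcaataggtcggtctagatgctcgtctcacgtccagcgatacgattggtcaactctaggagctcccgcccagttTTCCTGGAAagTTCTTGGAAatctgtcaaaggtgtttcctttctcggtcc

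Of the PI3K, mTOR and FOXO genes, 5 of 27 were higher and 2 lower (median 0.12), shares near the background. The largest rise was in Pik3r5, the p101 regulatory subunit of the PI3K that G-protein-coupled receptors activate, which read -0.39 in mock and -0.46 in ASXL1-MT cells in IL-3, and 2.50 and 2.25 at 24 h, a change of 2.80 ± 0.14 (adjusted p = 0.00547), with no overlap. Foxo4 (1.25 ± 0.18) and Sesn3 (0.83 ± 0.11), a FOXO-induced restraint on mTORC1, were higher, as were Ddit4 (0.59 ± 0.13), another mTORC1 inhibitor, and Rictor (0.43 ± 0.10), a subunit of mTORC2. Deptor (-0.87 ± 0.12), an mTOR-binding inhibitor, was lower. Foxo3 (-0.01 ± 0.08) and Txnip (0.53 ± 0.15), a glucose-responsive arrestin, did not pass. Higher PI3K, mTOR and FOXO genes numbered 3 over the mean of all probe sets, 8 with a variance trend, 3 without either 2 h array and 3 without either 6 h array. Sesn3, Ddit4 and Rictor did not pass under at least 1 other setting, with adjusted p-values of up to 0.418.

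Antigen presentation genes were higher in 7 of 16 tested cases and lower in 1 (median 0.50). The higher members belonged to the class I pathway, among them Tapbp (1.27 ± 0.10), or tapasin, Psmb9 (1.09 ± 0.09), an immunoproteasome subunit, B2m (0.88 ± 0.12), the class I light chain, Nlrc5 (0.80 ± 0.09), the class I transactivator, and Tap2 (0.62 ± 0.10), a peptide transporter. The heavy chains H2-D1 (-0.02 ± 0.42) and H2-K1 (-0.06 ± 0.16), which have near-identical copies, did not pass. The lower member was Cd74, the class II invariant chain, which read 0.35 in mock and 0.37 in ASXL1-MT cells in IL-3, and -1.64 and -0.74 at 24 h, a change of -1.55 ± 0.28 (adjusted p = 0.0249), with both 24 h arrays below both IL-3 arrays. Higher presentation genes numbered 4 without the filter on dim genes and 4 without either 6 h array. Nlrc5, Tap2 and Cd74 did not pass under at least 1 other setting, with adjusted p-values of up to 0.177.

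Few complement genes were bright: 5 of 13 on the array were tested, and the only call was Cd55 (-1.27 ± 0.15), which protects cells from complement and was lower. Cfp (0.71 ± 0.29), properdin, did not pass.

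Cytokine and chemokine ligands had 6 of 22 tested members higher and 4 lower (median 0.36). The chemokine Ccl6 read -0.31 in mock and -0.86 in ASXL1-MT cells in IL-3, and 3.35 and 3.01 at 24 h, a change of 3.76 ± 0.15 (adjusted p = 0.00516). Ccl3, another chemokine, went the other way, at 2.07 in mock and 1.81 in ASXL1-MT cells in IL-3, and -0.90 and -3.62 at 24 h, a change of -4.20 ± 0.79 (adjusted p = 0.0277). The 24 h arrays lay apart from the IL-3 arrays in each case. The interleukin Il6 read 1.33 in mock and 1.69 in ASXL1-MT cells in IL-3, and -5.40 and -1.40 at 24 h, a change of -4.91 ± 1.05 (adjusted p = 0.037), made up of -6.73 in mock and -3.09 in ASXL1-MT cells. Its 24 h arrays had estimated levels of 1.3 and 5.3, under the level for testing, so the size of the fall is uncertain. Without the mock 24 h array the fitted change was -3.17. Ccl9 (1.85 ± 0.13), Il15 (1.67 ± 0.22) and Vegfa (1.03 ± 0.09), the vascular growth factor, were higher, and Il1b (0.96 ± 0.55), the inflammatory interleukin-1 beta, did not pass. After quantile normalization the Ccl6 and Vegfa changes were 2.44 and 0.60. Lower ligands numbered 1 with a stricter filter, 1 without either 2 h array and 1 without either 6 h array. Ccl3 and Il6 did not pass under at least 1 other setting, with adjusted p-values of up to 0.0797.

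The phagocyte NADPH oxidase, which transfers electrons from NADPH to oxygen to make superoxide, had 5 of 8 tested members higher and 0 lower (median 1.22). Of its cytosolic organisers, Ncf4 (p40phox) read -0.51 in mock and -0.68 in ASXL1-MT cells in IL-3, and 2.01 and 1.71 at 24 h, a change of 2.46 ± 0.09 (adjusted p = 0.00516), and Ncf1 (1.5 ± 0.11), p47phox, was higher as well. The membrane subunit Cyba (0.94 ± 0.08), p22phox, the small GTPase Rac2 (0.69 ± 0.08) and the proton channel Hvcn1 (1.5 ± 0.14), which offsets the charge the oxidase moves, were higher. The catalytic subunit Cybb, gp91phox, read -1.48 in mock and 0.20 in ASXL1-MT cells in IL-3, and 1.53 and 1.13 at 24 h, a change of 1.97 ± 0.74 that did not pass. Its IL-3 values differed more between the vectors than its 24 h values did, and both IL-3 values lay below both 24 h values.

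Antioxidant enzymes divided in number, with 7 of 28 higher and 6 lower (median -0.01). Higher were the glutathione enzymes Gstm1 (3.10 ± 0.17), Mgst2 (2.01 ± 0.13), Glrx (1.21 ± 0.09) and Gpx1 (0.94 ± 0.08), and catalase, Cat (0.65 ± 0.14). Lower were the mitochondrial enzymes Prdx3 (-1.23 ± 0.11) and Sod2 (-1.08 ± 0.08), of which Sod2 read 0.05 in mock and 0.24 in ASXL1-MT cells in IL-3, and -0.98 and -0.88 at 24 h, with no overlap. Also lower were Gss (-0.88, adjusted p = 0.0468 in limma), glutathione synthetase, and the thioredoxin system genes Txn2 (-0.77), Txnrd1 (-0.57) and Txn1 (-0.34), which were named after their values were seen to complete the 6 lower members. Gsr (-0.28 ± 0.11), glutathione reductase, did not pass. Higher antioxidant genes numbered 4 without the filter on dim genes. Lower antioxidant genes numbered 2 without the filter on dim genes and 3 without either 2 h array. Cat did not pass under at least 1 other setting, with an adjusted p of up to 0.1.

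The pentose phosphate pathway supplies the NADPH, and 3 of its 9 tested genes were higher and 1 lower (median 0.24). Pgd (0.74 ± 0.09), which makes NADPH, Rpe (0.48 ± 0.10) and Taldo1 (0.41 ± 0.09) were higher, Prps1 (-0.56 ± 0.08), which leads ribose into nucleotides, was lower, and Tkt (0.34 ± 0.15), transketolase, did not pass. Glycogen, a fuel store of neutrophils, had 6 of 14 tested genes higher and 0 lower (median 0.35), on both the making and the using side. Pygl, a glycogen phosphorylase, read -0.12 in mock and -0.94 in ASXL1-MT cells in IL-3, and 1.97 and 1.87 at 24 h, a change of 2.45 ± 0.38 (adjusted p = 0.0188). The 24 h values lay above both IL-3 values. The primer Gyg (1.12 ± 0.16), the synthase Gys1 (0.71 ± 0.09), the phosphorylase kinase subunits Phkb (0.72 ± 0.09) and Phka2 (0.52 ± 0.10), and Pgm2 (0.42 ± 0.09) were higher, and the branching enzyme Gbe1 (0.14 ± 0.10) did not pass. Higher pentose phosphate genes numbered 1 after quantile normalization, 1 without either 2 h array and 1 without either 6 h array. Higher glycogen genes numbered 3 without either 6 h array. Rpe, Taldo1, Prps1, Pygl, Phka2 and Pgm2 did not pass under at least 1 other setting, with adjusted p-values of up to 0.777.

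Among carriers of sugar, lactate, amino acids and other small molecules, 6 of 22 were higher and 9 lower (median -0.40). The glucose carriers Slc2a3 (1.79 ± 0.09), Slc2a6 (0.98 ± 0.10) and Slc2a1 (0.95 ± 0.09) were higher, and Slc2a3 read -0.13 in mock and -0.18 in ASXL1-MT cells in IL-3, and 1.69 and 1.58 at 24 h, with no overlap. Slc19a1 (-1.45 ± 0.09), which imports folate, Slc25a5 (-1.06 ± 0.12), which exchanges ADP and ATP across the mitochondrial membrane, Slc29a1 (-0.99 ± 0.11), a nucleoside carrier, and Slc7a5 (-0.94 ± 0.13), which imports large amino acids, were lower. Slc16a3 (0.37 ± 0.12), a lactate exporter, did not pass. After quantile normalization the Slc2a1 and Slc2a6 changes were 0.62 and 0.64. Higher carriers numbered 3 after quantile normalization and 3 without either 6 h array. Lower carriers numbered 5 without the filter on dim genes and 5 without either 6 h array. Slc19a1 did not pass under at least 1 other setting, with an adjusted p of up to 0.0689.

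Lysosomes digest what the cell takes up or sends to autophagy, and of their genes 20 of 39 tested were higher and 1 lower (median 0.59). The membrane protein Lamp2 read -0.47 in mock and -0.56 in ASXL1-MT cells in IL-3, and 1.02 and 1.01 at 24 h, a change of 1.53 ± 0.09 (adjusted p = 0.00581), and the vectors differed far less than the time points. Grn (1.83 ± 0.10), progranulin, the glycan enzymes Arsb (1.66 ± 0.11), Man2b1 (1.61 ± 0.11), Neu1 (1.55 ± 0.14) and Hexa (0.66 ± 0.11), and Ctsd (1.11 ± 0.10), the aspartic protease cathepsin D, were higher. Lamp1 (0.17 ± 0.12) did not pass. The Arsb change was 0.88 over all probe sets. Higher lysosomal genes numbered 11 over the mean of all probe sets. Neu1 and Hexa did not pass under at least 1 other setting, with adjusted p-values of up to 0.134.

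The proton pump that acidifies these compartments had 7 of 15 tested subunits higher and 0 lower (median 0.37): Atp6v0a1 (1.10 ± 0.25), Atp6v0d1 (0.98 ± 0.09), Atp6v1a (0.80 ± 0.10), Atp6v1b2 (0.69 ± 0.10), Atp6ap2 (0.66 ± 0.11) and Atp6v0b (0.41 ± 0.08) among them, while Atp6v1h (0.05 ± 0.09) did not pass. The Atp6v0a1 change was 0.73 over all probe sets. Higher pump subunits numbered 2 without the filter on dim genes, 3 without either 2 h array and 3 without either 6 h array. Atp6v0a1, Atp6v1b2, Atp6ap2 and Atp6v0b did not pass under at least 1 other setting, with adjusted p-values of up to 0.1.

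The E-box CACGTG, a palindrome bound by MYC, MAX, TFEB and related factors, was counted in the same promoter window. It occurred in 12 of 33 lysosomal genes with a promoter (36.4%) and 4 of 10 pump subunits (40.0%), against 2187 of 27025 genes (8.09%). It was also present in lists that were mostly lower, with 4 of 12 tRNA synthetase genes (33.3%) and 7 of 22 translation factor genes (31.8%), so the letters were shared by genes that moved in opposite directions. Among other lists that were mostly lower the shares varied. They were under the share over all genes for 1 of 20 chaperones (5.0%), 2 of 28 proteasome genes (7.14%) and 2 of 25 TCA genes (8.0%). Above it were 7 of 30 nuclear transport genes (23.3%), 6 of 28 mitochondrial import genes (21.4%) and 5 of 32 nucleotide genes (15.6%). Oxidative phosphorylation (5 of 44, 11.4%) and splicing genes (4 of 36, 11.1%) lay above it by less. Lists with calls near the background also held it, in 8 of 34 chromatin genes (23.5%) and 6 of 29 repair genes (20.7%). For endoplasmic reticulum genes it was 3 of 29 (10.3%), and for PI3K, mTOR and FOXO genes 1 of 23 (4.35%). A raised share was thus not particular to lists that moved. Base composition was not matched in these shares. Examples from the raised lists are Ctsd (chr7:142387778-142388077, minus strand), with matches 245 and 98 bases before the start, and Atp6v0d1 (chr8:105566015-105566314, minus strand), with a match 3 bases before it. Examples from lowered genes are Nme1 (chr11:93968223-93968522, minus strand; 1 of its 2 listed promoters), with a match 18 bases before the start, and Timm8a1 (chrX:134541621-134541920, minus strand), with matches 236 bases before and 24 after it. Capitals mark the matches.
Ctsd: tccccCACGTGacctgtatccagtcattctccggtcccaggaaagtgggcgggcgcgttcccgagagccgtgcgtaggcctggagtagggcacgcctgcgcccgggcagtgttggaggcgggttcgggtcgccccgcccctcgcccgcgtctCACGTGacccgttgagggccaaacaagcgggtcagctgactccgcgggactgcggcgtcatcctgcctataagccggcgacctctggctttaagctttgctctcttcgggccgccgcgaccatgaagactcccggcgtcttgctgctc
Atp6v0d1: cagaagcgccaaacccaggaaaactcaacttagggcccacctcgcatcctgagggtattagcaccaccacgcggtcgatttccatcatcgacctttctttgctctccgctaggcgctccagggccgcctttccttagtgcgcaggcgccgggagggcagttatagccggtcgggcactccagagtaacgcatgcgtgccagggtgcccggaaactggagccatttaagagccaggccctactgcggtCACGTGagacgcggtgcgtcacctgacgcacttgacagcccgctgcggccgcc
Nme1: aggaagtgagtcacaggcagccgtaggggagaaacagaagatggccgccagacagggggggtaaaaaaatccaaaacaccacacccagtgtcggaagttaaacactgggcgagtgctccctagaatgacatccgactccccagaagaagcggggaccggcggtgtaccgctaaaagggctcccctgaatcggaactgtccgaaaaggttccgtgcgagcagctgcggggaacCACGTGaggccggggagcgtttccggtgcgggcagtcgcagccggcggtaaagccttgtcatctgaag
Timm8a1: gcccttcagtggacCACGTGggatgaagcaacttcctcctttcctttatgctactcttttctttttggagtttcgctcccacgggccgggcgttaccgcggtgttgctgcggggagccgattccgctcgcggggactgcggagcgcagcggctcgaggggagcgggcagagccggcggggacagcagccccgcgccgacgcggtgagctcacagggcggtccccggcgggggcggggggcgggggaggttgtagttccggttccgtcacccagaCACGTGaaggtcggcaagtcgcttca

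Autophagy delivers cytoplasm and organelles to the lysosome, and 14 of its 27 tested genes were higher and 1 lower (median 0.44). Map1lc3b, the membrane-bound LC3 protein, read -0.56 in mock and -0.65 in ASXL1-MT cells in IL-3, and 0.68 and 0.59 at 24 h, a change of 1.24 ± 0.09 (adjusted p = 0.00635), and Gabarap (1.07 ± 0.08), its relative, was higher too. The groups did not overlap. The initiating kinases Ulk1 (0.62 ± 0.10) and Ulk2 (1.18 ± 0.15), the membrane-recruiting Wipi1 (1.54 ± 0.15), Atg16l2 (1.25 ± 0.15), and the receptors Calcoco1 (2.30 ± 0.39) and Sqstm1 (0.58 ± 0.10), p62, were also higher. Higher autophagy genes numbered 6 without the filter on dim genes, 7 without either 2 h array and 9 without either 6 h array. Ulk1, Ulk2, Calcoco1 and Sqstm1 did not pass under at least 1 other setting, with adjusted p-values of up to 0.128.

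Among genes of vesicle traffic and exocytosis, 7 of 25 were higher and 1 lower (median 0.10). Rab27a, a GTPase that docks secretory granules, read -0.45 in mock and -0.72 in ASXL1-MT cells in IL-3, and 1.23 and 1.18 at 24 h, a change of 1.79 ± 0.09 (adjusted p = 0.00562). Its paralogue Rab27b read -0.06 in mock and 0.00 in ASXL1-MT cells in IL-3, and -1.67 and -1.95 at 24 h, a change of -1.78 ± 0.20 (adjusted p = 0.0107). The paralogues thus moved in opposite directions in both vectors. Stx11 (2.24 ± 0.26), a syntaxin of cytotoxic and myeloid cells, Rab32 (1.94 ± 0.11), Rab37 (1.24 ± 0.15) and Snx10 (0.94 ± 0.10) were higher, and Stxbp2 (0.31 ± 0.11) and Vamp8 (0.02 ± 0.08), parts of the fusion machinery, did not pass.

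The actin cytoskeleton drives migration and engulfment. Of 46 tested genes 15 were higher and 1 lower (median 0.30). Gsn, gelsolin, which severs actin filaments, read -0.36 in mock and -0.77 in ASXL1-MT cells in IL-3, and 2.09 and 1.72 at 24 h, a change of 2.47 ± 0.11 (adjusted p = 0.00547). Lsp1 (2.08 ± 0.10), an actin-binding protein of leukocytes, Myo1f (1.67 ± 0.17), a myeloid myosin, Iqgap1 (1.05 ± 0.12), a scaffold, and Tmsb10 (1.02 ± 0.14), which binds actin monomers, were higher. The core genes Actb (0.33 ± 0.10), Arpc2 (0.19 ± 0.10) and Coro1a (0.32 ± 0.09) did not pass. Arpc2 passed over the mean of its probe sets, at 0.56, and Actb and Coro1a passed with a stricter filter and with a variance trend. Higher actin genes numbered 23 with a variance trend and 24 with a stricter filter. Tmsb10 did not pass under at least 1 other setting, with an adjusted p of up to 0.0967.

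Genes of tubulins, lamina and nuclear shape had 3 of 22 higher and 5 lower (median -0.23). Syne1 and Syne2, nesprins that tie the nucleus to the cytoskeleton, moved apart: Syne1 read -0.33 in mock and -0.57 in ASXL1-MT cells in IL-3, and 1.42 and 1.37 at 24 h, a change of 1.85 ± 0.11 (adjusted p = 0.00581), and Syne2 read 0.36 in mock and 0.46 in ASXL1-MT cells in IL-3, and -0.46 and -0.35 at 24 h, a change of -0.82 ± 0.08 (adjusted p = 0.00863). Sun2 (0.88 ± 0.11), their partner in the nuclear envelope, and Padi4 (1.21 ± 0.08), the histone deiminase of neutrophil extracellular traps, were higher. Tubb6 (-1.48 ± 0.13), a beta tubulin, and Hmgn1 (-0.67 ± 0.09), a nucleosome-binding protein, were lower. The lamin B receptor Lbr (0.03 ± 0.08) and Lmnb1 (-0.15 ± 0.11), lamin B1, did not pass. Lower nuclear shape genes numbered 2 over the mean of all probe sets, 3 without either 2 h array and 3 without either 6 h array. Syne1, Syne2, Sun2 and Hmgn1 did not pass under at least 1 other setting, with adjusted p-values of up to 0.375.

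S100 proteins and annexins, calcium-binding proteins abundant in neutrophil cytoplasm, were higher in 9 of 14 tested cases and lower in 0 (median 0.66). Anxa1, the annexin that restrains neutrophil recruitment, read -1.04 in mock and -1.32 in ASXL1-MT cells in IL-3, and 1.74 and 1.84 at 24 h, a change of 2.97 ± 0.13 (adjusted p = 0.00547), with no overlap. Anxa2 (1.31 ± 0.08), Anxa5 (0.67 ± 0.08), S100a1 (1.08 ± 0.12) and the calprotectin subunits S100a9 (1.20 ± 0.14) and S100a8 (1.01 ± 0.14) were higher by smaller amounts. Matrix proteases and protease inhibitors had 11 of 19 higher and 0 lower (median 1.0). The inhibitors Stfa2l1 (4.06 ± 0.25), a stefin with near-identical copies and therefore uncertain, Slpi (2.17 ± 0.13), which blocks elastase, Spint1 (1.64 ± 0.26) and Serpinb6a (1.27 ± 0.12) were higher, together with the membrane proteases Adam19 (2.46 ± 0.45) and Adam8 (2.00 ± 0.12). Timp2 (0.29 ± 0.74), a metalloprotease inhibitor, did not pass. Anxa2, Spint1 and Adam19 did not pass under at least 1 other setting, with adjusted p-values of up to 0.227.

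**Figure D3:**
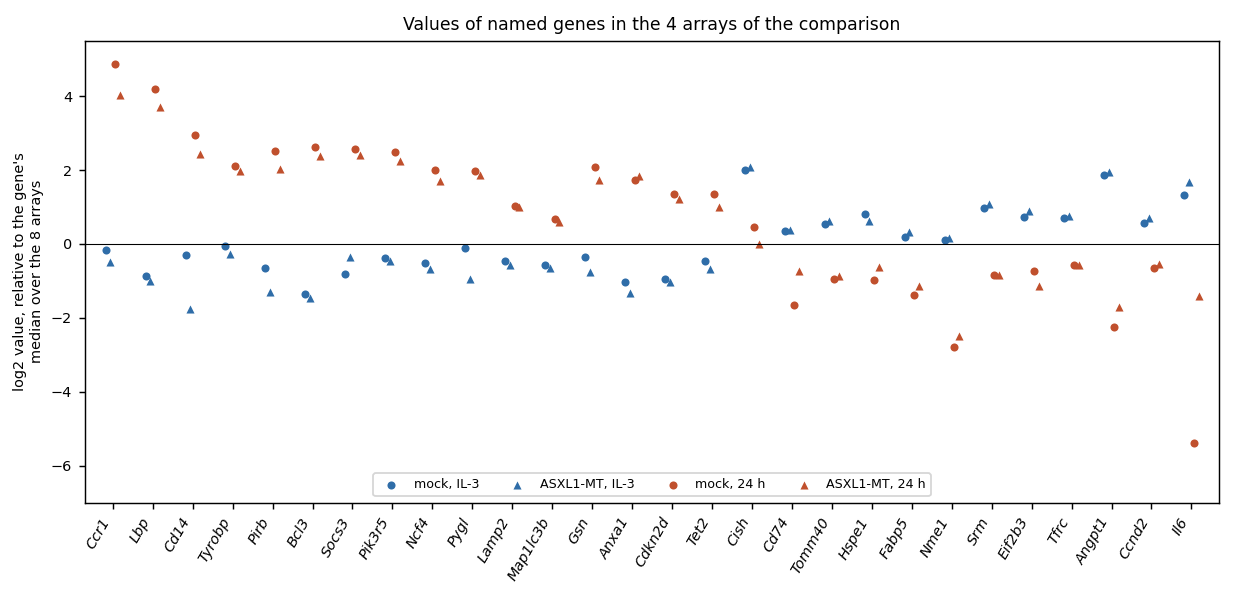
Log2 values of 28 named genes, relative to each gene's median over the 8 arrays, in the 4 arrays of the comparison. Circles are mock and triangles ASXL1-MT cells, blue in IL-3 and red at 24 h, 1 array per point. In every gene shown both 24 h points lie on the same side of both IL-3 points, and the mock 24 h point of Il6, at -5.40, is the farthest from its vector partner. All 28 genes were picked from those already called, so this separation was largely set by the choice.

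Lower members outnumbered higher ones in the lists of mitochondrial import, oxidative phosphorylation and the TCA cycle. Of genes for mitochondrial import, chaperones and gene expression 22 of 30 were lower and 0 higher (median -0.81). Tomm40, the channel through which proteins enter, read 0.54 in mock and 0.63 in ASXL1-MT cells in IL-3, and -0.95 and -0.88 at 24 h, a change of -1.5 ± 0.08 (adjusted p = 0.00554). Hspe1, the co-chaperonin that works with HSP60, read 0.81 in mock and 0.62 in ASXL1-MT cells in IL-3, and -0.97 and -0.63 at 24 h, a change of -1.52 ± 0.19 (adjusted p = 0.012). No 24 h array of these genes reached an IL-3 array. Timm8a1 (-1.33 ± 0.09), Timm17a (-1.32 ± 0.08) and Timm10 (-0.57 ± 0.11), which carry proteins across or between the membranes, Hspd1 (-1.22 ± 0.09), HSP60 itself, and Hspa9 (-1.12 ± 0.11), the import motor chaperone, were lower. Tfam (-0.34 ± 0.09), which packages mitochondrial DNA, did not pass. Timm10 did not pass under at least 1 other setting, with an adjusted p of up to 0.0743.

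For oxidative phosphorylation 20 of 55 tested subunits were lower and 1 higher (median -0.29), a smaller shift than in the import genes. Cycs, cytochrome c, read 0.46 in mock and 0.54 in ASXL1-MT cells in IL-3, and -0.77 and -0.51 at 24 h, a change of -1.14 ± 0.09 (adjusted p = 0.00683). Cyc1 (-0.95 ± 0.09), Uqcrc1 (-0.68 ± 0.08), Atp5g1 (-0.83 ± 0.08) and the complex I subunits Ndufa5 (-0.76 ± 0.10), Ndufc1 (-0.68 ± 0.09) and Ndufs1 (-0.57 ± 0.08) were lower. Atp5b (-0.29 ± 0.09) and Cox5a (-0.17 ± 0.09) did not pass. The probe sets of Atp5g1 disagreed, with a mean change of 0.03. Lower respiratory subunits numbered 6 without the filter on dim genes, 31 with a stricter filter, 10 without either 2 h array and 7 without either 6 h array. Cycs, Atp5g1 and Ndufs1 did not pass under at least 1 other setting, with adjusted p-values of up to 0.984.

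In the TCA cycle and its feeding reactions 13 of 28 were lower and 2 higher (median -0.37). Got1 (-1.08 ± 0.09), an aspartate transaminase, Pcx (-0.91 ± 0.15), which refills oxaloacetate, Idh3a (-0.73 ± 0.12), Sucla2 (-0.70 ± 0.09) and Fh1 (-0.68 ± 0.08) were lower. Idh1 (0.86 ± 0.12), the cytosolic enzyme that makes NADPH, and Pdk1 (0.52 ± 0.12), which holds back pyruvate entry, were higher, and Idh1 read 0.01 in mock and -0.13 in ASXL1-MT cells in IL-3, and 0.80 and 0.80 at 24 h. Cs (-0.31 ± 0.08), citrate synthase, did not pass. Lower TCA genes numbered 3 without the filter on dim genes, 7 without either 2 h array and 7 without either 6 h array. Pcx, Idh3a, Sucla2 and Pdk1 did not pass under at least 1 other setting, with adjusted p-values of up to 0.94.

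**Figure D4:**
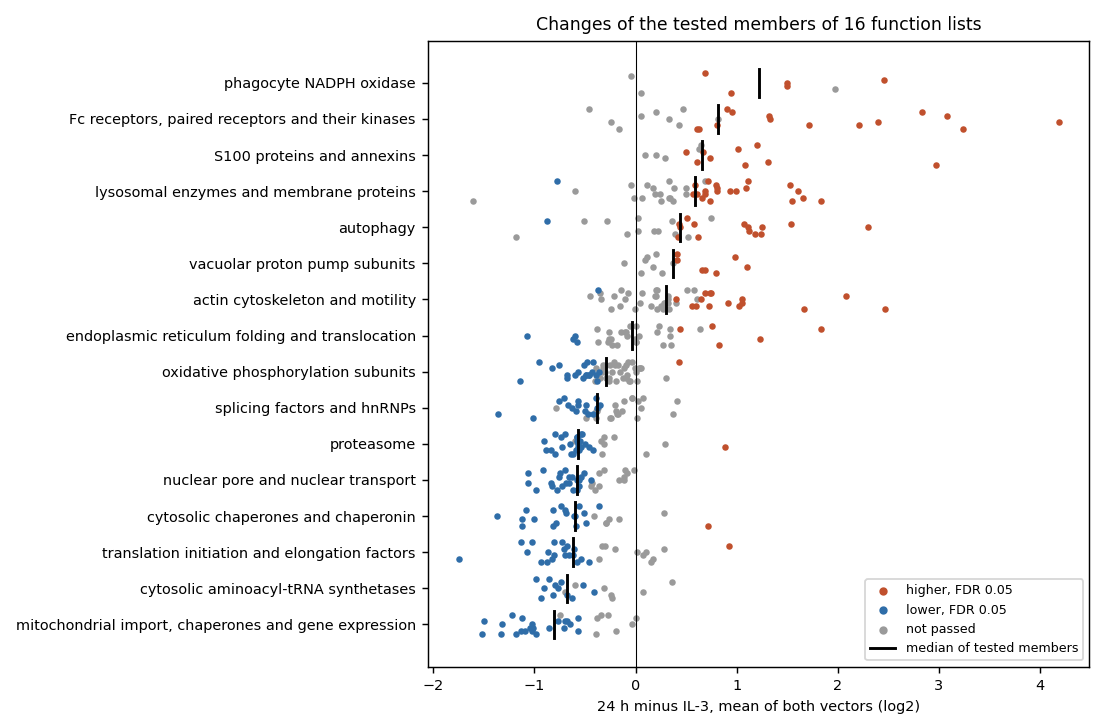
Each point is the change of 1 tested member (24 h minus IL-3, log2, mean of both vectors) in 16 of the function lists. Red and blue points passed a false discovery rate of 0.05 as higher or lower, grey points did not, and black bars are medians, which run from 1.22 for the NADPH oxidase to -0.81 for mitochondrial import, chaperones and gene expression.

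Lipid genes were mixed. In fatty acid synthesis 4 of 17 were lower and 2 higher (median -0.27). Fasn (-1.0 ± 0.08), fatty acid synthase, Elovl6 (-1.10 ± 0.13), an elongase, Scd2 (-0.91 ± 0.12), a desaturase, and Acsl3 (-0.54 ± 0.09) were lower, Acss2 (0.85 ± 0.08), which makes acetyl-CoA from acetate, and Elovl5 (0.35 ± 0.07) were higher, and Acaca (-0.36 ± 0.14) did not pass. Among genes of fatty acid oxidation and lipid droplets 4 of 24 were higher and 6 lower (median 0.02). Fabp5, a fatty acid carrier, read 0.20 in mock and 0.32 in ASXL1-MT cells in IL-3, and -1.39 and -1.15 at 24 h, a change of -1.53 ± 0.09 (adjusted p = 0.00581), and the droplet coat gene Plin3 read -0.79 in mock and -1.12 in ASXL1-MT cells in IL-3, and 1.0 and 0.93 at 24 h, a change of 1.92 ± 0.10 (adjusted p = 0.00564). Neither gene's groups overlapped. Cpt1a (1.06 ± 0.09), the gate to mitochondrial oxidation, Dgat1 (0.82 ± 0.09), which makes triglyceride, and Acaa2 (0.63 ± 0.09) were higher, and Acadl (-0.68 ± 0.10) was lower on its chosen probe set but 1.79 higher over all of them. Acadm (0.04 ± 0.11) and Plin2 (0.32 ± 0.09) did not pass, and the Dgat1 change was 1.26 over all probe sets. Lower synthesis genes numbered 7 over the mean of all probe sets and 9 with a stricter filter. Lower oxidation genes numbered 1 without the filter on dim genes and 3 without either 6 h array. Acsl3, Acss2, Elovl5, Cpt1a, Acaa2 and Acadl did not pass under at least 1 other setting, with adjusted p-values of up to 0.118.

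Leukotriene and prostaglandin synthesis had 4 of 12 tested genes higher and 1 lower (median 0.48). Alox5ap, which presents arachidonate to 5-lipoxygenase, read -0.44 in mock and -0.48 in ASXL1-MT cells in IL-3, and 1.01 and 1.01 at 24 h, a change of 1.47 ± 0.09 (adjusted p = 0.00596), and Lta4h (0.86 ± 0.09) and Ltc4s (0.98 ± 0.14), which make leukotrienes B4 and C4, were higher, with Tbxas1 (1.11 ± 0.11), thromboxane synthase. Ptges2 (-0.79 ± 0.11), a prostaglandin E synthase, was lower. Alox5 (-0.32 ± 0.22), the lipoxygenase itself, and Ptgs2 (0.90 ± 1.80), cyclooxygenase 2, did not pass. The Lta4h change was 1.41 over all probe sets and the Tbxas1 change 0.66 after quantile normalization. Ltc4s did not pass under at least 1 other setting, with an adjusted p of up to 0.0565.

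Lower members outnumbered higher ones in each list of the growth machinery, from nucleotide supply to the proteasome. Of purine, pyrimidine and one-carbon genes 18 of 34 were lower and 3 higher (median -0.58). Nme1, a nucleoside diphosphate kinase, read 0.11 in mock and 0.15 in ASXL1-MT cells in IL-3, and -2.79 and -2.48 at 24 h, a change of -2.76 ± 0.24 (adjusted p = 0.00762), from a probe set that can match other transcripts. Mthfd1 (-1.23 ± 0.08) and Mthfd2 (-0.84 ± 0.13) of folate metabolism, Atic (-1.22 ± 0.09), Gart (-1.18 ± 0.10) and Ppat (-1.10 ± 0.10) of purine synthesis and Cad (-1.17 ± 0.11), which starts pyrimidine synthesis, were lower. Adssl1 (1.84 ± 0.17) and Dck (1.41 ± 0.14), a salvage kinase, were higher. Lower nucleotide genes numbered 11 without the filter on dim genes. Mthfd2 and Ppat did not pass under at least 1 other setting, with adjusted p-values of up to 0.573.

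In polyamine and S-adenosylmethionine metabolism 3 of 12 were lower and 1 higher (median -0.20). Srm, spermidine synthase, read 0.97 in mock and 1.09 in ASXL1-MT cells in IL-3, and -0.84 and -0.84 at 24 h, a change of -1.87 ± 0.10 (adjusted p = 0.00562). Sat1, which acetylates spermidine for breakdown, read -0.40 in mock and -0.61 in ASXL1-MT cells in IL-3, and 1.06 and 1.11 at 24 h, a change of 1.59 ± 0.13 (adjusted p = 0.00719). The synthetic and the catabolic enzyme thus moved in opposite directions, with no overlap of groups in either. Mtap (-1.75 ± 0.16) and Ahcy (-1.48 ± 0.11), which recycle by-products, were lower, and Odc1 (-0.67 ± 0.24) did not pass.

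Cytosolic tRNA synthetases, which charge tRNAs with amino acids, were lower in 12 of 19 cases and higher in 0 (median -0.68). Rars (-0.98 ± 0.09), Iars (-0.93 ± 0.09), Wars (-0.90 ± 0.12), Hars (-0.86 ± 0.08), Tars (-0.82 ± 0.10), Farsb (-0.80 ± 0.13), Aars (-0.63 ± 0.13) and Lars (-0.41 ± 0.09) were among them. Of translation factors 20 of 31 were lower and 1 higher (median -0.62). Eif2b3, a subunit of the exchange factor that recharges eIF2, read 0.74 in mock and 0.88 in ASXL1-MT cells in IL-3, and -0.74 and -1.14 at 24 h, a change of -1.75 ± 0.18 (adjusted p = 0.00912), and both 24 h arrays lay below both IL-3 arrays. The initiation factors Eif3b (-1.13 ± 0.11) and Eif2b5 (-0.87 ± 0.09), the cap-binding protein Eif4e (-0.81 ± 0.19), the synthetase complex component Eef1e1 (-1.07 ± 0.11) and the release factors Etf1 (-1.02 ± 0.10) and Gspt1 (-0.93 ± 0.09) were lower. Eif4a1 (-0.20 ± 0.10) and Eef2 (0.28 ± 0.08) did not pass, and the Etf1 change was -0.53 over all probe sets. Lower synthetases numbered 7 without the filter on dim genes. Lower translation factors numbered 12 without the filter on dim genes. Farsb, Aars, Lars, Eif2b5 and Eif4e did not pass under at least 1 other setting, with adjusted p-values of up to 0.729.

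Splicing factors were lower in 16 of 38 cases and higher in 0 (median -0.38). Snrpa1 (-1.36 ± 0.09), a U2 particle protein, Prpf31 (-1.01 ± 0.11), Prpf19 (-0.71 ± 0.11), Snrpd3 (-0.76 ± 0.17), Snrpc (-0.67 ± 0.10) and Snrpb (-0.59 ± 0.09) were lower, and Snrpa1 read 0.30 in mock and 0.36 in ASXL1-MT cells in IL-3, and -1.11 and -0.95 at 24 h. The regulators Srsf1 (-0.19 ± 0.09) and Hnrnpa1 (0.01 ± 0.33) did not pass. The nuclear pore and transport list had 23 of 35 lower and 0 higher (median -0.58). The small GTPase Ran (-0.70 ± 0.12), its exchange factor Rcc1 (-1.06 ± 0.12) and its binding protein Ranbp1 (-0.78 ± 0.08) were lower, as were the exportins Xpo5 (-1.06 ± 0.10), Xpot (-0.91 ± 0.09) and Cse1l (-0.98 ± 0.08) and the importin Ipo5 (-0.84 ± 0.10). Rcc1 read 0.51 in mock and 0.57 in ASXL1-MT cells in IL-3, and -0.48 and -0.55 at 24 h. Kpna2 (-0.10 ± 0.09) and Xpo1 (-0.11 ± 0.14) did not pass, and the Prpf19 change was -1.36 over all probe sets. Lower splicing genes numbered 2 without the filter on dim genes, 10 without either 2 h array and 5 without either 6 h array. Lower transport genes numbered 11 without the filter on dim genes and 15 without either 2 h array. Prpf19, Snrpd3, Snrpc, Snrpb, Ran, Xpot and Ipo5 did not pass under at least 1 other setting, with adjusted p-values of up to 0.965.

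Cytosolic chaperones were lower in 18 of 25 cases and higher in 1 (median -0.60), with Hsph1 (-1.37 ± 0.12), Hspa4 (-1.12 ± 0.08) and Stip1 (-1.0 ± 0.08) of the HSP70 and HSP90 systems, Fkbp4 (-1.08 ± 0.08) and the chaperonin subunits Cct3 (-1.12 ± 0.08) and Cct6a (-0.82 ± 0.08). Hsph1 read 0.59 in mock and 0.55 in ASXL1-MT cells in IL-3, and -0.97 and -0.62 at 24 h. Hspa8 (-0.29 ± 0.14), the constitutive HSP70, did not pass. The proteasome was lower in 25 of 34 subunits and higher in 1 (median -0.57), in changes of less than 2-fold for those named: Psmc5 (-0.90 ± 0.08), Psmd7 (-0.89 ± 0.09), Psmd12 (-0.84 ± 0.08), Psmc1 (-0.80 ± 0.07), Psmb7 (-0.70 ± 0.09), Psmd11 (-0.64 ± 0.12) and Psma3 (-0.54 ± 0.10). Psmc5, an ATPase of the cap, read 0.03 in mock and 0.05 in ASXL1-MT cells in IL-3, and -0.84 and -0.89 at 24 h. The exception, Psmd13 (0.88 ± 0.16), had probe sets that disagreed, with a mean of -0.04, and Psmb5 (-0.34 ± 0.09) did not pass. Lower chaperones numbered 10 over the mean of all probe sets and 11 without either 6 h array. Lower proteasome subunits numbered 8 without the filter on dim genes and 15 without either 6 h array. Hspa4, Fkbp4, Psmd7, Psmc1, Psmd11, Psma3 and Psmd13 did not pass under at least 1 other setting, with adjusted p-values of up to 0.876.

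Genes of the endoplasmic reticulum stood near the background, with 5 of 34 higher and 4 lower (median -0.03). The stress sensors Ern1 (1.83 ± 0.18) and Atf6 (0.83 ± 0.09), the co-chaperone Dnajb9 (1.23 ± 0.13) and the oxidase Ero1a (0.76 ± 0.08) were higher. Hyou1 (-1.07 ± 0.20), a chaperone, and Rpn1 (-0.62 ± 0.09), a glycosylation subunit, were lower. Hspa5 (-0.24 ± 0.09), Sec61a1 (-0.38 ± 0.10) and Xbp1 (0.34 ± 0.30) did not pass, and the Hyou1 change was -0.67 over all probe sets. Higher reticulum genes numbered 9 with a stricter filter. Lower reticulum genes numbered 0 without the filter on dim genes and 1 without either 6 h array. Ern1, Atf6, Hyou1 and Rpn1 did not pass under at least 1 other setting, with adjusted p-values of up to 0.558.

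Iron and heme genes were mixed too, with 4 of 19 higher and 3 lower (median 0.05). Tfrc, the transferrin receptor through which dividing cells take up iron, read 0.70 in mock and 0.75 in ASXL1-MT cells in IL-3, and -0.58 and -0.58 at 24 h, a change of -1.30 ± 0.12 (adjusted p = 0.00803), with no overlap. Slc25a37 (1.75 ± 0.13), mitoferrin, Hfe (1.36 ± 0.09), which restrains transferrin receptor uptake, and the heme synthesis genes Ppox (1.74 ± 0.16) and Alas1 (0.93 ± 0.10) were higher, while Alad (-0.91 ± 0.10), of the same pathway, was lower. Fth1 (0.29 ± 0.09) and Slc11a1 (-0.36 ± 0.33) did not pass. Higher iron and heme genes numbered 2 over the mean of all probe sets. Hfe, Ppox, Alas1 and Alad did not pass under at least 1 other setting, with adjusted p-values of up to 0.244.

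Progenitor receptors and transcription factors had 4 of 19 tested members lower and 1 higher (median 0.09). Angpt1, angiopoietin 1, read 1.86 in mock and 1.96 in ASXL1-MT cells in IL-3, and -2.24 and -1.70 at 24 h, a change of -3.88 ± 0.22 (adjusted p = 0.00581). Gata2, a transcription factor of stem and mast cells, read 0.06 in mock and 0.47 in ASXL1-MT cells in IL-3, and -1.22 and -0.86 at 24 h, a change of -1.31 ± 0.12 (adjusted p = 0.00789). Both genes were lower in both vectors, with no overlap. Cd48 (-1.80 ± 0.10) and Zfpm1 (-0.73 ± 0.13), the GATA cofactor FOG1, were lower, Erg (0.59 ± 0.14) was higher, and Myb (0.69 ± 0.22) did not pass. Kit and Cd34 were too dim on their chosen probe sets to test. Zfpm1 and Erg did not pass under at least 1 other setting, with adjusted p-values of up to 0.547.

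Of G1 cyclins, CDK inhibitors and E2F genes 13 of 28 were higher and 4 lower (median 0.43). Cdkn2d, the CDK4 and CDK6 inhibitor p19, read -0.94 in mock and -1.03 in ASXL1-MT cells in IL-3, and 1.34 and 1.22 at 24 h, a change of 2.26 ± 0.08 (adjusted p = 0.0048). Cdkn1b, the inhibitor p27, read -0.84 in mock and -1.16 in ASXL1-MT cells in IL-3, and 0.64 and 0.50 at 24 h, a change of 1.57 ± 0.17 (adjusted p = 0.00983). Ccnd2, the D cyclin that cytokines induce, read 0.57 in mock and 0.70 in ASXL1-MT cells in IL-3, and -0.66 and -0.55 at 24 h, a change of -1.24 ± 0.09 (adjusted p = 0.00638). Both inhibitors were thus higher and this cyclin lower in both vectors. Ccng2 (2.18 ± 0.14), a cyclin of arrested cells, E2f2 (2.07 ± 0.12) and Cdk6 (1.21 ± 0.08), a kinase that promotes G1 progress, were higher, and Cdkn1a (-0.12 ± 0.12), the inhibitor p21, did not pass. Lower G1 genes numbered 2 without the filter on dim genes and 7 with a variance trend.

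DNA damage response and repair genes were higher in 8 of 36 cases and lower in 5 (median 0.05), near the background. Xrcc5 (1.32 ± 0.10), the Ku80 subunit, Ddb2 (1.10 ± 0.08), a damage-binding protein, Fancg (1.01 ± 0.10) and Fanca (0.95 ± 0.15) of the Fanconi pathway, Chek2 (0.77 ± 0.10), a checkpoint kinase, and Brca1 (0.40 ± 0.08) were higher, and Apex1 (-1.09 ± 0.11), the abasic site nuclease, was lower. The Fancg change was 0.67 after quantile normalization. Lower repair genes numbered 2 over the mean of all probe sets, 8 with a variance trend and 3 without either 6 h array. Brca1 did not pass under at least 1 other setting, with an adjusted p of up to 0.1.

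Chromatin genes, the group to which ASXL1 belongs, were higher in 7 of 39 cases and lower in 4 (median 0.24), again near the background. Tet2, which oxidises methylcytosine and is mutated in the same diseases as ASXL1, read -0.47 in mock and -0.68 in ASXL1-MT cells in IL-3, and 1.35 and 1.01 at 24 h, a change of 1.75 ± 0.10 (adjusted p = 0.00581), with no overlap. Ezh1 (1.36 ± 0.21), a Polycomb methyltransferase, Asxl1 (0.87 ± 0.09) and Kdm6b (0.92 ± 0.22), a demethylase of the mark that Polycomb makes, were higher. Hdac9 (-5.07 ± 1.10), a class II deacetylase, and Bmi1 (-0.82 ± 0.10) were lower, and Ezh2 (0.16 ± 0.11), Dnmt1 (0.16 ± 0.10) and Hdac1 (-0.33 ± 0.10) did not pass. The Hdac9 change was -3.0 over all probe sets, and its 24 h arrays had estimated levels of 2.7 and 3.0, under the level for testing, so its size is uncertain. Higher chromatin genes numbered 3 without the filter on dim genes, 13 with a stricter filter and 2 without either 6 h array. Lower chromatin genes numbered 1 without the filter on dim genes, 8 with a variance trend and 2 without either 6 h array. Ezh1, Kdm6b and Hdac9 did not pass under at least 1 other setting, with adjusted p-values of up to 0.0978.

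Over all bright genes outside the granule and ribosomal sets, the largest rises included several genes of secreted or surface proteins. Bright means an estimated level of at least 8.34 on at least 2 arrays, and 17 of the 20 genes with the largest rises were under it on both IL-3 arrays. Wfdc17, a small secreted protein with a whey acidic protein domain, read -0.14 in mock and -0.22 in ASXL1-MT cells in IL-3, and 7.46 and 6.76 at 24 h, a change of 7.29 ± 0.38 (adjusted p = 0.00554), and reached the level for testing only through the 24 h arrays. Wfdc21 (4.10 ± 0.08) of the same family, Mpeg1 (5.46 ± 0.91), the pore-forming perforin-2 of phagocytes and also a macrophage marker above, F10 (4.35 ± 0.19), coagulation factor X, Cd300lb (4.10 ± 0.43) and Igsf6 (3.95 ± 0.14), immunoglobulin-fold receptors, Nrg4 (3.51 ± 0.19), a neuregulin, Mtus1 (5.44 ± 0.35), Ankrd22 (3.56 ± 0.18), Pram1 (3.63 ± 0.18), an adaptor of myeloid cells, Lyst (3.73 ± 0.59), which controls lysosome size, and Mxd1 (3.47 ± 0.12), a MAX partner that opposes MYC, were higher. Mxd1 read -1.24 in mock and -1.5 in ASXL1-MT cells in IL-3, and 2.30 and 1.89 at 24 h. After quantile normalization the Igsf6 and Wfdc21 changes were 2.60 and 2.62, and the mean over all Ankrd22 probe sets was 1.59 and over all Lyst probe sets 2.04. Mpeg1, Ankrd22 and Lyst did not pass under at least 1 other setting, with adjusted p-values of up to 0.148.

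The largest falls in the same ranking included Rasgef1b (-3.95 ± 0.33), a Ras-family exchange factor, Etv5 (-3.55 ± 0.23), an ETS factor downstream of ERK, Hal (-3.45 ± 0.20), which degrades histidine, Ccn3 (-3.18 ± 0.19), a matrix-associated signalling protein, Gfi1b (-2.87 ± 0.19), a repressor of erythroid and megakaryocytic cells, Gimap4 (-2.79 ± 0.29), Kcnk5 (-2.55 ± 0.17), a potassium channel, Plxdc2 (-2.55 ± 0.15), F2r (-2.13 ± 0.11), the thrombin receptor, Ndufaf4 (-2.19 ± 0.19), a complex I assembly factor, and Mtmr9 (-1.92 ± 0.09). Etv5 read 1.33 in mock and 1.36 in ASXL1-MT cells in IL-3, and -2.24 and -2.16 at 24 h, and Gfi1b read 0.13 in mock and 0.49 in ASXL1-MT cells in IL-3, and -2.52 and -2.60 at 24 h. In both, the vectors lay close together and the time points far apart. Usp17la (-3.87 ± 0.34), Akr1c13 (-3.12 ± 0.12) and Akr1c12 (-2.93 ± 0.09) belong to families of near-identical copies, which makes the assignment to 1 gene uncertain. Txnrd3 (-3.72 ± 0.62), Tmem109 (-2.55 ± 0.24) and Abcb1b (-2.24 ± 0.20), a drug exporter, were lower with means over all probe sets of -1.87, -0.85 and -1.25. Txnrd3, Tmem109 and Abcb1b did not pass under at least 1 other setting, with adjusted p-values of up to 0.166.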

How the data were processed

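The deposited value table holds log2 values of 45037 probe sets on 8 arrays. Per the labels, biotin-labelled cRNA was read on Affymetrix mouse arrays with MAS 5.0, and RMA is named, with no version, in the submitters' processing notes. Each probe set was centred on its median over the 8 arrays (largest absolute median 5.0e-07). How the values were centred and scaled, and their log base, is not given in the sources used here. Base 2 was assumed. A natural log would make each log2 difference 1.44 times larger.

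Levels lost by the centring were estimated, coarsely, from the rounding of the stored numbers. The rounding mainly places a level between successive powers of 2. Many bright probe sets therefore had similar estimates, such as 11.8 for Mpo and 12.0 for Gata1, and their decimals do not rank genes. By the array's probe annotation, 34945 probe sets had 1 gene symbol, 932 several and 9160 none. Each gene was read by the probe set whose estimated level, rounded to an integer, was highest. Where rounded levels were equal, probe set type and then probe set name decided. Bright probe sets had similar estimates, so for many bright genes level did not make the choice. Tested were 12911 genes that reached the table's median level (6.23) on at least 2 arrays. Many dim probe sets had estimates near this cut, such as 6.3 for Itgax and 6.2 for Epor. For such genes, testing depended partly on how far their higher arrays rose above their median, and the background shares rest on this filter.

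Changes were fitted in limma 3.58.1 (R 4.3.3; lmFit, eBayes, two-sided) on all 8 arrays, with time and vector as terms. The fit left 3 residual degrees of freedom, and the prior added 1.17. Benjamini-Hochberg adjustment ran over all genes tested, at a false discovery rate of 0.05. The error after each change is its standard error in the fit. The script was tested on simulated data. The alternatives changed the filter, the probe set rule, the scaling, the vector term, the variance prior and the arrays included.

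The 42 function lists and the members named were chosen with earlier results of these data known. Named genes are the 3 listed first in each list, up to 6 called members ranked by the smaller of their within-vector changes, and the 20 highest and 20 lowest bright genes (level 8.34 or more on at least 2 arrays) of that ranking outside the granule list and the ribosomal protein genes. Promoters came from RefSeq (GRCm38.p6).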

Additional observations from a re-analysis of the deposited data

Results flagged for a closer look

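Among the tested genes named as the first members of their lists, 13 moved in opposite directions in the vectors, and none of them passed. The difference between vectors was not tested, since each vector has 1 array per time. The 24 h minus IL-3 differences, in mock and then in ASXL1-MT cells, were Acadm -0.09 and 0.16, Alox5 0.02 and -0.65, Atp6v1h -0.02 and 0.13, Foxo3 -0.03 and 0.02. For antigen presentation and RNA-binding genes they were H2-D1 -0.53 and 0.50, H2-K1 0.16 and -0.29, Hnrnpa1 -0.32 and 0.34. The remaining pairs were Lbr 0.06 and -0.00, Slc11a1 0.21 and -0.94, Timp2 -0.03 and 0.60, and then Vamp8 -0.05 and 0.08, Xbp1 -0.19 and 0.86, Xpo1 0.03 and -0.25. Among these 13 the gaps were widest for Xbp1, Slc11a1 and H2-D1, while those of Foxo3, Lbr and Timp2 lay within the standard errors of the fit. Fpr2 (-0.23 and 1.32) and Cd34 (0.39 and -1.48) also moved in opposite directions but were too dim to test.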

How the results depend on the processing

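The 1935 higher and 1562 lower genes and the 504 passing list members became 1031, 735 and 288 without the filter on dim genes, and 0, 0 and 0 when the 4 arrays of the comparison were fitted alone. Leaving out 1 array gave 0 to 1344 higher genes, 0 to 1038 lower genes and 0 to 376 list members. All 3 counts were 0 without any IL-3 or 24 h array. Without a 2 h array 1344 genes were higher and 1038 lower, and without a 6 h array 1229 and 938. The share of calls that were higher was 55.3%, and it was 46.0% with each array centred on its median and 48.0% after quantile normalization. Of the 292 called genes named, 281 kept their call with centred arrays, 271 with quantile normalization, 233 without the filter and 231 over the mean of all probe sets. That mean turned the direction of 4 called genes, to 1.79 for Acadl, 0.03 for Atp5g1, -0.04 for Psmd13 and -0.13 for Tlr4. It also turned uncalled ones, to -0.75 for Atp6v1h, -0.08 for Cfp, 0.23 for H2-D1, 0.19 for H2-K1, -0.15 for Hnrnpa1, 0.03 for Lmnb1, -0.51 for Timp2 and -0.17 for Tkt. With centred arrays Acadm was -0.05, Atp6v1h -0.03, Hnrnpa1 -0.08, Lbr -0.05 and Vamp8 -0.07, and after quantile normalization Hnrnpa1 was -0.08. Over the fits without 1 array, uncalled genes whose direction turned ranged from -0.07 to 0.14 (Acadm), -0.04 to 0.03 (Foxo3), -0.56 to 0.53 (H2-D1), -0.29 to 0.16 (H2-K1), -0.46 to 0.47 (Hnrnpa1), -0.00 to 0.06 (Lbr), -0.77 to 0.04 (Slc11a1), -0.49 to 1.06 (Timp2), -0.04 to 0.07 (Vamp8), -0.03 to 0.70 (Xbp1) and -0.25 to 0.03 (Xpo1). The main fit had 3 residual degrees of freedom, each fit without 1 array had 2, and the fit of the 4 arrays alone had 1. With the same 2, calls differed by which array was left out, and the causes of the fall in calls were not tested. No paired analysis was possible because the labels give no replicate numbers, other than the pairing by vector, which is a term of the fit. Of 12911 genes tested, 491 reached the level only with the 24 h arrays counted, and the estimated levels are too coarse to rank genes, dim or bright.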
